A study of Homo sapiens with 24 samples.

Results

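The genes described here are 6 mucins of the airway epithelium, MUC1, MUC5AC, MUC5B, MUC13, MUC16 and MUC20, and SPDEF, a transcription factor of mucus-producing cells. They were chosen by name, and the transcript rows of each gene were summed. This choice, like that of the gene lists below, was made with earlier results of these data known. Of the 7 genes, 6 had a row in the table of 33126 genes and 5 had enough counts to be tested beside 15337 tested genes in all. RNA-seq of A549 cells, an established human line from a lung adenocarcinoma, compared 100 nM dexamethasone (dex), a synthetic glucocorticoid, with its vehicle ethanol (EtOH, 0.02% of the medium by volume). Each treatment lasted 1, 3, 5, 7, 9 or 11 h and had 2 libraries, which makes 24 libraries in 12 groups. Dex was itself added in ethanol, so all groups received the same volume of it. Values are counts per 1000000 (CPM), a library's count of a gene scaled to its normalized library size, and a gene is called where edgeR's quasi-likelihood test gave a Benjamini-Hochberg adjusted p of at most 0.1.

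Mucins are large proteins whose long repeats of serine and threonine carry dense O-linked sugars. The secreted, gel-forming mucins MUC5AC and MUC5B make up the mucus that traps inhaled particles, and cilia carry it out of the airway. MUC1, MUC13, MUC16 and MUC20 span the cell membrane, where they form part of the surface coat and can take part in signalling. SPDEF drives the programme of goblet cells, the mucus-secreting cells of the airway, together with factors such as FOXA3. Glucocorticoids bind the glucocorticoid receptor (GR), a transcription factor, and are used against airway inflammation.

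The libraries held between 6708864 and 13748598 counts (median 10109394), and replicates correlated at 0.984 to 0.991 over log2 CPM, with no library apart from the rest. The GR targets TSC22D3, FKBP5 and PER1, which served to check the treatment, had mean log2 fold changes over the 6 times of 4.06 ± 0.06, 3.298 ± 0.042 and 3.27 ± 0.07 (SE), and each rose in the comparison of all times. All 6 epithelial markers were tested, and the 6 together summed to between 3898 and 12364 CPM. Of 9 alveolar type 2 markers, the surfactant proteins SFTPA1 and SFTPA2 were at 0 in all 24 libraries, while the lipid transporter ABCA3 had a median of 32.1 CPM, and the 9 together summed to between 25.1 and 50.2 CPM. Of 20 goblet and secretory cell genes with a row, 7 were at 0, among them CLCA1 and TFF3, secreted products of goblet cells, while AGR2 had a median of 92.2 CPM, and the list summed to between 74.5 and 180.1 CPM. SCGB1A1, the secretoglobin of club cells, had 4 counts over all libraries. In bulk RNA, fewer cells that express a gene and less RNA per cell cannot be told apart.

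The promoter of MUC1 is shown first because MUC1 had the largest response to dex, and those of MUC13 and SPDEF because they were the other members called at any time. The sequences are the 250 bases before the RefSeq start on GRCh38.p14, 5′ to 3′ on the strand of the gene, and capitals mark AGAACA, the core hexamer of GR binding elements, which was searched together with its reverse complement TGTTCT.
MUC1 promoter (minus strand, chr1:155192916-155193165): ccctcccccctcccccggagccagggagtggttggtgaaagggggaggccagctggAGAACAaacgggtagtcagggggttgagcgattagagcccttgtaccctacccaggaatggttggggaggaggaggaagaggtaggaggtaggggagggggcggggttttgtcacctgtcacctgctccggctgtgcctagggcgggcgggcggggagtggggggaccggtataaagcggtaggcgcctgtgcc
MUC13 promoter (minus strand, chr3:124934752-124935001): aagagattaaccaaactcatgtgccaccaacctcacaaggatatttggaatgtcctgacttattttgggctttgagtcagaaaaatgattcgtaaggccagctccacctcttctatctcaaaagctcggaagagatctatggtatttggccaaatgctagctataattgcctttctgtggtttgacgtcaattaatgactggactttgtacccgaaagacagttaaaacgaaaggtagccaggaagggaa
SPDEF promoter (minus strand, chr6:34556330-34556579): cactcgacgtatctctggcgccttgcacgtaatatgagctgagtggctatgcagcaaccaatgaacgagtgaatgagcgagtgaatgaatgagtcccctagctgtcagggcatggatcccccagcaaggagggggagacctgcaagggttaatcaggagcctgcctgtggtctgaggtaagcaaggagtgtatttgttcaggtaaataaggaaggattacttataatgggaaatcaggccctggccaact
The window of MUC1 held the hexamer once, on the strand of the gene, beginning at -194 from the start. The RefSeq start of MUC13 lies within the span that GENCODE gives the gene, so other starts of it were not covered. The windows of MUC13 and SPDEF did not hold these letters on either strand. They occur in 12.4% of 35116 promoter windows of the same length, so a match describes the sequence and does not mark a bound site. MUC5AC, MUC5B and MUC20 had no entry among the promoters used here.

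The level of each member with EtOH was low over the transcript rows joined to it. Those were 12 of 29 transcripts of MUC1, 1 of 5 of MUC13, 2 of 5 of MUC5B, 5 of 8 of MUC20, 4 of 5 of MUC16 and 2 of 2 of SPDEF. Counts on rows not joined to a gene are missing from these levels. Per transcript length, in TPM (counts divided by length and scaled to the same total) over the 12 EtOH libraries, MUC20 stood at 3.31 ± 1.12 (SD), MUC13 at 2.60 ± 1.10, MUC1 at 2.42 ± 0.95, SPDEF at 2.24 ± 0.71, MUC5B at 0.293 ± 0.181 and MUC16 at 0.0136 ± 0.0301. The first 4 lay within each other's spread, at percentiles 50.2 to 53.8 of the 25461 genes above 0 with EtOH, while MUC5B lay at percentile 30.2. With the length of the longest transcript in place of each transcript's own, MUC20 fell to 1.18 TPM and SPDEF rose to 3.06 TPM, so the order among these 4 was not fixed. For comparison, the keratin KRT8, a filament protein of these cells, stood at 2871 TPM.

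Dex changed many genes, and the calls among the members are given beside those among all tested genes. At 1 h 0 of the 5 tested members were called, where 0.639% of all genes were called higher and 0.417% lower. At 3 h the count was again 0, where 8.42% were called higher and 5.65% lower. At both times 0 members had an unadjusted p under 0.05 in edgeR or in DESeq2. At 5 h 1 of 5 rose and 2 of 5 fell, where 12.4% of all genes were called higher and 12.6% lower. MUC1 was the single member called later, 1 of 5 higher at 7 h (14.7% of all genes higher and 13.5% lower), at 9 h (10.8% and 8.95%) and at 11 h (5.80% and 3.33%). In the mean over the 6 times 1 of 5 was higher and 1 of 5 lower, where 16.9% and 18.9% of all genes were. The effect of dex differed between times for 1 of 5 members and for 15.4% of all genes. With EtOH alone 0 of 5 members changed over time, none with an unadjusted p under 0.05 in edgeR or DESeq2, and 0.0522% of all genes did. The shares of the members rest on 5 genes and were not tested against those of all genes. The p-values measure the spread between 2 libraries per group, which the labels call biological replicates without naming separate cultures.

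MUC1, the membrane mucin of chromosome 1 (chr1:155185824-155192916, minus strand, GRCh38), rose with dex from 5 h on. At 1 h the dex libraries held 0.790 and 0.608 CPM and the EtOH libraries 1.21 and 0.647 CPM, which overlap. At 3 h the dex libraries held 1.25 and 1.71 CPM, both above the EtOH libraries at 1.03 and 0.747 CPM. The log2 fold changes at these times were -0.35 ± 0.59 and 0.76 ± 0.46 (SE), and neither was called (adjusted p = 0.987 and 0.358).

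From 5 h the groups lay apart. MUC1 reached 4.15 and 4.14 CPM with dex at 5 h against 1.13 and 0.749 CPM with EtOH, a fold of 4.46. At 7 h it stood at 3.76 and 4.22 CPM against 1.47 and 1.47 CPM, a fold of 2.69. At 9 h it stood at 4.13 and 4.04 CPM against 0.713 and 1.2996 CPM, a fold of 4.12. All dex libraries of these times were above all EtOH libraries. At 11 h it stood at 4.02 and 3.77 CPM against 1.89 and 0.655 CPM, a fold of 3.16. The EtOH pair at 11 h was the most uneven of the course. The log2 fold change at 11 h was 1.66 from the libraries of that time alone, and one fit over all times called it too. In that fit, without the second EtOH library of 11 h, it was 1.04 and was not called. DESeq2 did not call the change at 11 h either (adjusted p = 0.105). Over 5 to 11 h the 8 dex libraries spanned 3.76 to 4.22 CPM, on 29 to 54 counts, and the 8 EtOH libraries 0.655 to 1.89 CPM, on 6 to 15 counts.

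The log2 fold changes of MUC1 were 2.16 ± 0.37 at 5 h, 1.43 ± 0.33 at 7 h, 2.04 ± 0.37 at 9 h and 1.66 ± 0.43 at 11 h (SE, n = 2 against 2). Their adjusted p-values in edgeR were 1.15e-05, 0.00122, 0.00204 and 0.0340. Averaged over the 6 times in one fit, the log2 fold change was 1.28 ± 0.17 with an adjusted p of 8.23e-07. The effect of dex differed between times in an F-test over the 6 effects (adjusted p = 0.0593), a call that is lost at a threshold of 0.05 and also when any one of 5 libraries was left out, namely both dex libraries and the first EtOH library of 1 h, the first EtOH library of 3 h and the second of 5 h. The effect at 5 h exceeded that at 1 h by 2.49 ± 0.64 on the log2 scale. Ordered by mean CPM, the dex groups at 5, 9, 7 and 11 h came first, at 4.15 ± 0.0056, 4.08 ± 0.07, 3.99 ± 0.33 and 3.89 ± 0.18 (SD), and these neighbours did not differ beyond their spread. The dex group at 3 h followed at 1.48 ± 0.33, beside EtOH at 7 h at 1.47 ± 0.0028, and the dex group at 1 h was the lowest at 0.699 ± 0.129.

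**Figure D1:**
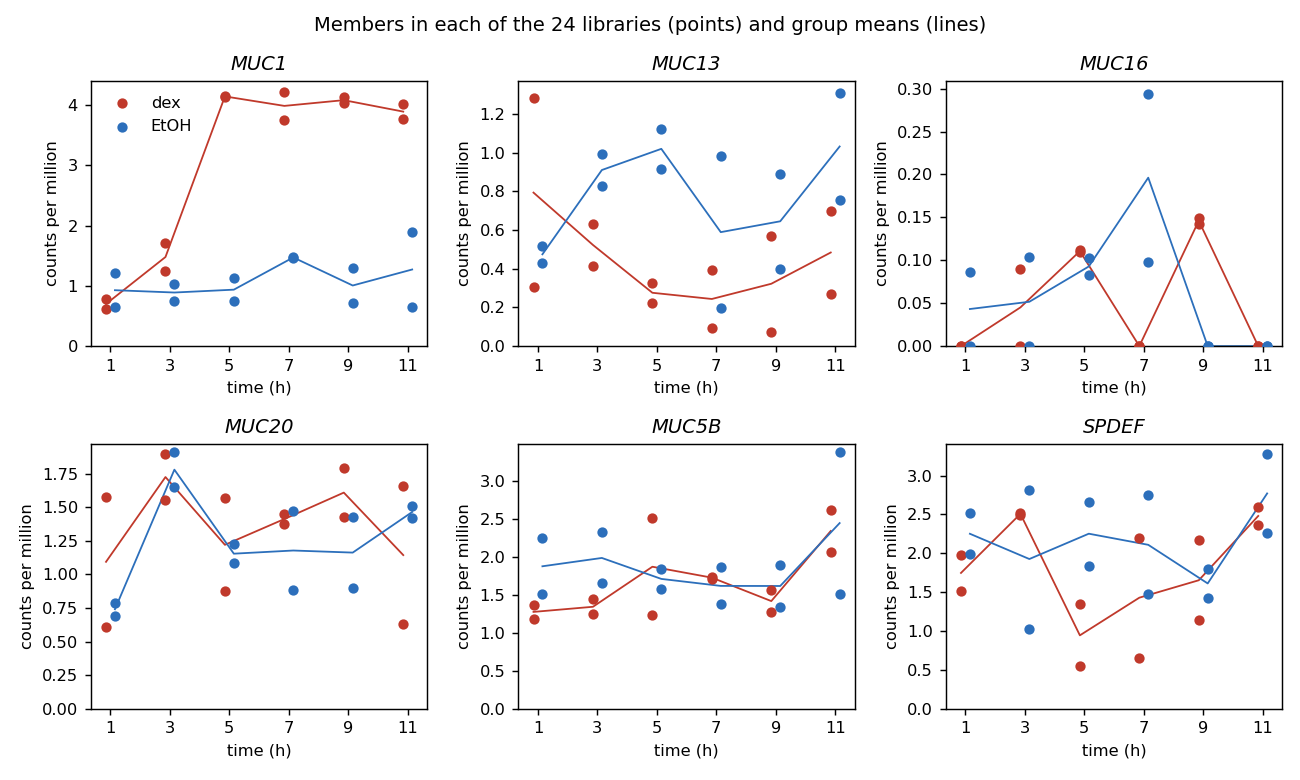
CPM (y axis, its own scale in each panel) against time in hours for the 6 members with a row. Each point is 1 library, red for dex and blue for EtOH, and lines join the means of the 2 libraries. MUC1 with dex moved from 0.699 CPM at 1 h to 4.15 CPM at 5 h and stayed between 3.76 and 4.22 CPM, while EtOH stayed at or below 1.89 CPM. In each of the other panels the colours overlap at 3 or more of the 6 times.

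The rise of MUC1 was spread over its transcript rows. The table joined 12 transcripts of 516 to 1161 bases to MUC1, and in the pooled libraries of 5 to 11 h each of the 12 was higher with dex. The row with the most counts, ENST00000338684.5, had 54 counts with dex and 19 with EtOH, and ENST00000438413.1 had 41 and 6. Taken alone, the first of these rows was called at 5 h, with a log2 fold change of 2.27 (adjusted p = 0.0392), and gave 0.52, 1.22 and 1.42 at 7, 9 and 11 h, none of them called. The longer MUC1 forms that carry the full repeat were not among the rows joined here. How a read shared by several transcripts was divided is not stated, and in 35 pairs of identical transcripts the counts split like a random draw. The split between rows is therefore a description only, and their common rise does not show which transcripts changed. The protein-coding gene AL713999.1 overlaps MUC1 on the same strand over 1449 bases and had 2961 counts, against 496 for MUC1. No 50-base window of the 12 MUC1 sequences, the length of the reads, occurs in a joined row of another gene, AL713999.1 included. Only exact matches were counted, and rows not joined to a gene were not compared, so shared reads are not excluded.

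**Figure D2:**
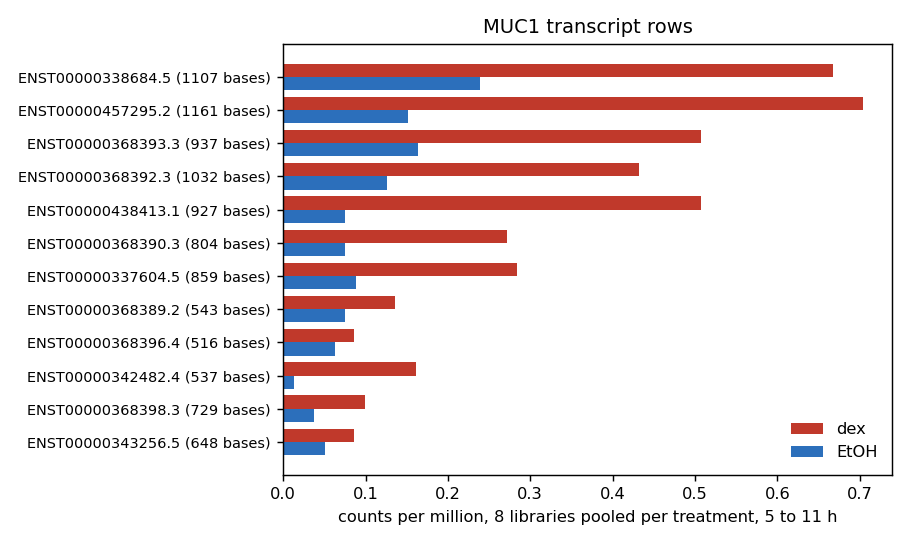
CPM (x axis) of each of the 12 MUC1 transcript rows (y axis, with length in bases), pooled over the 8 dex (red) and the 8 EtOH (blue) libraries of 5 to 11 h; no error is drawn because reads shared between rows make them dependent. Every red bar is longer than its blue partner.

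Among the 3738 other genes called at 2 or more times, the 3 whose 6 log2 fold changes followed those of MUC1 most closely were HMGCS1, FOXO1 and VSTM2L, with Pearson's r of 0.994, 0.988 and 0.985 over the 6 times. HMGCS1, an enzyme of sterol synthesis, had a much smaller response, of 0.55 at 5 h on the log2 scale, while FOXO1, a transcription factor, had 2.16 and VSTM2L 2.82. These correlations rest on 6 points from the same libraries, and 254 genes had an r over 0.9.

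MUC13, a membrane mucin best known from the gut (chr3:124905442-124953819, minus strand), was lower with dex at 5 of 6 times, and the call at 5 h was its single call. At 5 h the dex libraries held 0.328 and 0.224 CPM (3 and 2 counts) and the EtOH libraries 1.13 and 0.916 CPM (11 counts each), so the groups did not overlap. The log2 fold change at 5 h was -1.83 ± 0.69 (SE, adjusted p = 0.0537). At 3 h the dex libraries, at 0.415 and 0.631 CPM, also lay below the EtOH libraries, at 0.826 and 0.996 CPM. At 11 h, too, dex at 0.699 and 0.269 CPM lay below EtOH at 0.756 and 1.31 CPM. The values overlapped at 1, 7 and 9 h, and the highest dex library of all was 1 of the 2 at 1 h, with 1.28 CPM on 13 counts. Dex counts at 3 to 11 h ran from 1 to 8 and EtOH counts from 2 to 12.

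Averaged over the 6 times, MUC13 fell by 0.92 ± 0.32 on the log2 scale (SE, adjusted p = 0.0303), a 1.90-fold lower level with dex. Neither call held in every fit, although the mean was also called in DESeq2. The call at 5 h was absent in edgeR's one fit over all times (log2 fold change -1.83, adjusted p = 0.125). Libraries were left out in that fit, so leaving them out cannot show whether the call rested on 1 library. Without each of the 4 libraries of 5 h in turn, the log2 fold change was -2.11 to -1.59. Without the first EtOH library of 7 h the mean was -0.67 and was no longer called. DESeq2 gave no adjusted p for MUC13 at 5 h, and its unadjusted p was under 0.05 at 0 of 6 times, the smallest being 0.0838. The value of MUC13 came from 1 transcript row of 587 bases, 1 of the 5 transcripts of the gene.

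SPDEF (chr6:34537802-34556333, minus strand) was lower with dex at 5 h and was called at no other time. The dex libraries of 5 h held 0.546 and 1.34 CPM and the EtOH libraries 1.84 and 2.66 CPM, which do not overlap. The log2 fold change was -1.27 ± 0.44 (SE, adjusted p = 0.0351), a 2.41-fold lower level. The call held in one fit over all times. In that fit, without the first dex library of 5 h, the log2 fold change was -0.75 and was not called. The call was also lost there without either EtOH library of 5 h. In DESeq2 it was lost as well (adjusted p = 0.290). At 7 h the dex libraries were 2.20 and 0.660 CPM against 1.47 and 2.75 CPM. At 9 h they were 1.14 and 2.17 CPM against 1.43 and 1.80 CPM, and at 11 h 2.36 and 2.60 CPM against 2.27 and 3.27 CPM. At these 3 times the groups overlapped, and the log2 fold changes were -0.44, 0.16 and -0.15. At 1 h SPDEF stood at 1.98 and 1.52 CPM with dex and 1.99 and 2.52 CPM with EtOH, which do not overlap by a narrow margin, and at 3 h at 2.49 and 2.52 CPM and 1.03 and 2.82 CPM. Over the 6 times the mean log2 fold change was -0.29 ± 0.19 (SE, adjusted p = 0.279).

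MUC5B, the gel-forming mucin of the distal airway and the submucosal glands (chr11:1223066-1262172, plus strand), was not called at any time. Its 12 dex libraries spanned 1.19 to 2.62 CPM (median 1.51) and its 12 EtOH libraries 1.34 to 3.38 CPM (median 1.75). At 1 and 3 h the dex pairs, at 1.19 and 1.37 CPM and at 1.25 and 1.44 CPM, lay below the EtOH pairs, at 2.25 and 1.51 CPM and at 1.65 and 2.32 CPM, and from 5 h the pairs overlapped. The log2 fold changes ran from -0.57 ± 0.39 at 3 h to 0.14 ± 0.40 at 5 h, and the mean over the 6 times was -0.20 ± 0.16 (SE, adjusted p = 0.416). At 0 of 6 times did edgeR or DESeq2 give an unadjusted p under 0.05, the smallest being 0.158 and 0.364. Its antisense gene MUC5B-AS1 had 8 counts over all libraries and shares 2.36% of the 50-base windows of MUC5B.

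MUC20, a membrane mucin encoded at chr3:195720882-195741123 (plus strand), was not called at any time either. It spanned 0.608 to 1.89 CPM with dex (median 1.504) and 0.691 to 1.91 CPM with EtOH (median 1.32), and the groups overlapped at all 6 times. The log2 fold changes ran from -0.33 ± 0.51 at 11 h to 0.64 ± 0.56 at 1 h, with a mean of 0.18 ± 0.19 (SE, adjusted p = 0.531). Unadjusted p-values under 0.05 occurred at 0 of 6 times in edgeR and in DESeq2, with smallest values of 0.254 and 0.485. MUC20 is uncertain for another reason. The noncoding gene MUC20-OT1 overlaps it on the same strand over 19083 bases and had 9609 counts, against 321 for MUC20, and 31.2% of the 50-base windows of the MUC20 rows also occur in rows of other genes.

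MUC16, a very long membrane mucin (chr19:8848844-8981342, minus strand), was not detectable as a difference at this depth. It had 6 counts over the 12 dex libraries and 8 over the 12 EtOH libraries, with 0 counts in 7 and 6 of them, and no library exceeded 3 counts. A count of 3, the limit that a count of 0 allows, corresponds to 0.216 to 0.456 CPM in these libraries, and this covers counting error only. MUC5AC (chr11:1157953-1201138, plus strand), the gel-forming mucin of surface goblet cells, had no row joined here and was not analysed.

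**Figure D3:**
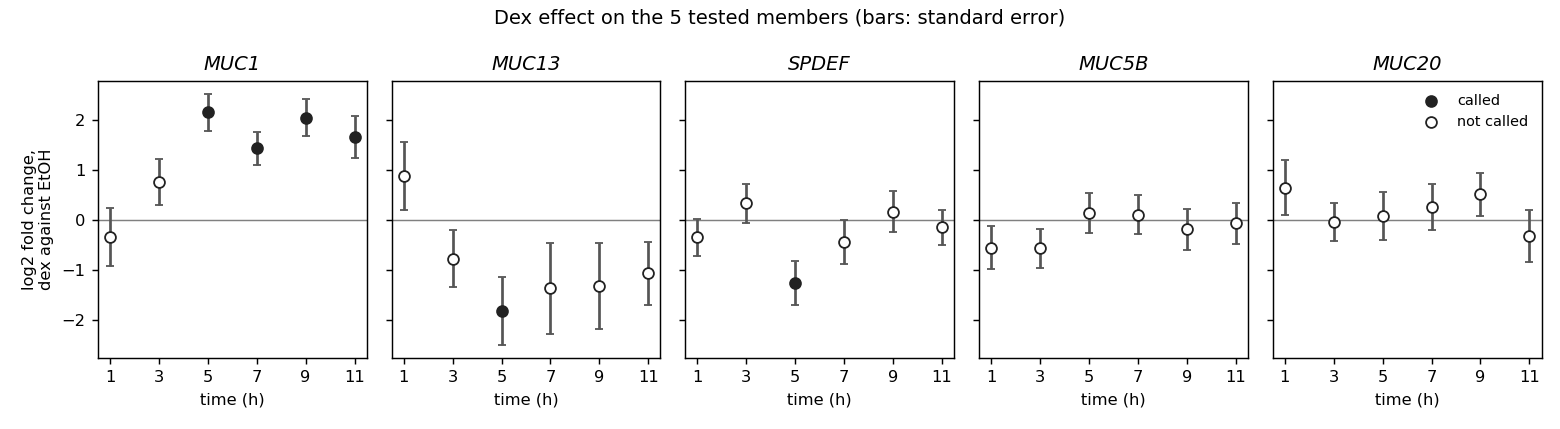
Log2 fold change of dex against EtOH (y axis, shared scale) by time in hours for the 5 tested members, with standard errors as bars. Filled points were called at an adjusted p of at most 0.1. MUC1 was called at 5, 7, 9 and 11 h, MUC13 and SPDEF at 5 h, and MUC5B and MUC20 at no time.

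Other mucins were barely detected. Of 13 listed, 2 were tested, MUC12 and OVGP1, and 1 call was made, for OVGP1, the oviductal glycoprotein, at 9 h. There 1 of the 2 was higher and 0 lower, where 10.8% of all genes were called higher and 8.95% lower. A share of 2 genes was not tested against that of all genes at 9 h. OVGP1 had 0.998 and 1.35 CPM with dex and 0.446 and 0.400 CPM with EtOH at that time, a log2 fold change of 1.51 ± 0.55 (SE, adjusted p = 0.0912). MUC2, the gel-forming mucin of the intestine, had 0 counts in all libraries, and MUC4 had 18.

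Of 21 genes of goblet and secretory cells, 4 were tested, and 2 were lower with dex at each of 5, 7 and 9 h (12.6%, 13.5% and 8.95% of all genes), while at 11 h 1 was higher and 1 lower (5.80% and 3.33%). FOXA3, which acts beside SPDEF in goblet cells, fell most. Its 12 dex libraries together held 28 of its 153 counts. At 7 h it had 0.0916 and 0 CPM with dex against 0.983 and 0.980 CPM with EtOH, and at 11 h 0.0874 and 0.179 CPM against 2.27 and 0.764 CPM. Its mean log2 fold change was -2.25 ± 0.35 (SE, adjusted p = 8.28e-06). FOXA3 was called at 5, 7, 9 and 11 h, the times at which MUC1 was called higher. CEACAM6, a surface adhesion protein, fell by 0.42 ± 0.06 in the mean, and at 5 h stood at 13.3 ± 3.0 CPM with dex and 25.6 ± 2.7 with EtOH (SD). AGR2, a disulfide isomerase needed to fold mucins, was called at 1 h alone, lower at 59.8 ± 7.0 against 105 ± 17 CPM. TFF1, a trefoil peptide secreted with mucus, was called at 11 h alone, higher at 2.27 and 1.88 CPM with dex against 0.504 and 0.764 CPM with EtOH, a log2 fold change of 1.69 ± 0.48 (SE, adjusted p = 0.0543).

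Of 22 transcription factors known to act on mucin genes, 21 were tested. At 7 h 7 were higher and 8 lower, where 14.7% of all genes were called higher and 13.5% lower. The median log2 fold change at 7 h was -0.02, beside 0.00 over all genes. At 3 h 3 were higher and 6 lower (8.42% and 5.65% of all genes), and at 9 h 7 and 5 (10.8% and 8.95%). KLF4, a Krüppel-like factor of differentiated epithelia, was higher at all 6 times, with a mean log2 fold change of 1.42 ± 0.07 (SE) and 20.4 ± 0.9 against 6.33 ± 0.21 CPM at 1 h (SD). GATA6 fell by 1.10 ± 0.14 and was at 1.77 ± 1.38 against 5.55 ± 0.89 CPM at 7 h. FOXA1, a pioneer factor of airway epithelium, fell by 0.89 ± 0.08 and was lower at each time from 3 h. HES1, an effector of Notch signalling, fell by 0.92 ± 0.07, with its lowest level at 1 h, 4.61 ± 0.37 against 16.2 ± 2.7 CPM. All 4 means had adjusted p-values of 2.28e-07 or below.

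The epidermal growth factor receptor (EGFR) raises the production of mucins in airway cells, and all 12 genes listed for it were tested. At 5 h 2 were higher and 5 lower (12.4% and 12.6% of all genes), and the median was -0.29 beside 0.01 over all genes. At 7 h 3 were higher and 4 lower (14.7% and 13.5% of all genes), and the median was -0.05 beside 0.00. EGFR itself was called higher with dex at 7 and 9 h, by 0.25 ± 0.07 and 0.34 ± 0.10 on the log2 scale (SE, adjusted p = 0.0107 and 0.0476). Among the ligands EREG, AREG and TGFA fell. EREG was at 29.5 ± 0.5 CPM with dex and 204 ± 5 with EtOH at 3 h (SD), with a mean log2 fold change of -1.83 ± 0.05 (SE). AREG fell by 1.54 ± 0.07 and TGFA by 0.68 ± 0.07. ERRFI1, a feedback inhibitor of EGFR, rose by 1.87 ± 0.05 and was called higher at all 6 times. ERRFI1 is also on the list of GR targets, so its rise is no separate evidence.

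A list of 35 glycosyltransferases and related enzymes, drawn up around the O-linked sugars of mucins, had 27 tested genes. It also holds enzymes of other sugars, such as B3GNT5 for glycolipids and FUT8 for N-linked sugars, so its counts are not of mucin enzymes alone. At 3 h 6 were higher and 2 lower (8.42% and 5.65% of all genes), at 5 h 6 and 7 (12.4% and 12.6%), at 7 h 7 and 4 (14.7% and 13.5%), and at 11 h 5 and 1 (5.80% and 3.33%). In the mean over the 6 times 8 were higher and 8 lower (16.9% and 18.9%), and the median was 0.06 beside 0.00 over all genes. ST3GAL1, which caps the core 1 sugar with sialic acid, had the largest change, from 11.3 ± 1.8 CPM with EtOH and 13.5 ± 0.5 with dex at 1 h to 10.9 ± 0.4 and 69.2 ± 3.1 CPM at 3 h (SD). It stayed between 67.0 and 89.0 CPM in the 10 dex libraries of 3 to 11 h, with a mean log2 fold change of 2.31 ± 0.06 (SE). B3GNT5, which adds N-acetylglucosamine to lactosyl lipids, rose by 1.32 ± 0.06. GALNT18 and GALNT4, of the family of enzymes that add the first sugar, rose by 1.20 ± 0.08 and 1.07 ± 0.06. ST3GAL1 and GALNT18 were called from 3 h, while B3GNT5 and GALNT4 were called at all 6 times.

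Of 22 genes of mucin granules and their release, 19 were tested. At 5 h 5 were higher and 2 lower (12.4% and 12.6% of all genes), in the mean 7 were higher and 1 lower (16.9% and 18.9%), and the median was 0.11 beside 0.00 over all genes. SYT2, a calcium sensor for exocytosis, had a mean log2 fold change of 2.19 ± 0.40 (SE). It stood at 3.11 and 1.80 CPM with dex at 3 h against 0.207 and 0.0830 CPM with EtOH, on 30, 20, 2 and 1 counts, and at 5 h it was not called. ANO1, a calcium-activated chloride channel, had a mean of 1.62 ± 0.35, on at most 22 counts in a library, and the call of this mean was lost without the first dex library of 1 h. UNC13D, a priming factor, rose by 0.55 ± 0.08, and the cotransporter SLC12A2 fell by 0.37 ± 0.05.

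Among 14 partners of membrane mucins, 12 were tested. At 5 h 2 were higher and 4 lower (12.4% and 12.6% of all genes), and the median was 0.19 beside 0.01 over all genes. At 7 h 4 were higher and 2 lower (14.7% and 13.5% of all genes), and the median was 0.11 beside 0.00 over all genes. SRC, a kinase that phosphorylates the cytoplasmic tail of MUC1, was at 34.7 ± 2.3 CPM with dex and 89.1 ± 1.3 with EtOH at 7 h (SD), with a mean log2 fold change of -1.02 ± 0.06 (SE). EZR, which links membrane proteins to actin, rose by 0.35 ± 0.04. CTNNB1, a catenin that binds the tail of MUC1, rose by 0.18 ± 0.04 and the receptor MET fell by 0.29 ± 0.04. MSLN, the binding partner of MUC16, was outside the rule for named genes and was chosen after its values were seen. It was called at 5 h, at 2.18 and 2.58 CPM with dex against 0.409 and 0.833 CPM with EtOH.

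**Figure D4:**
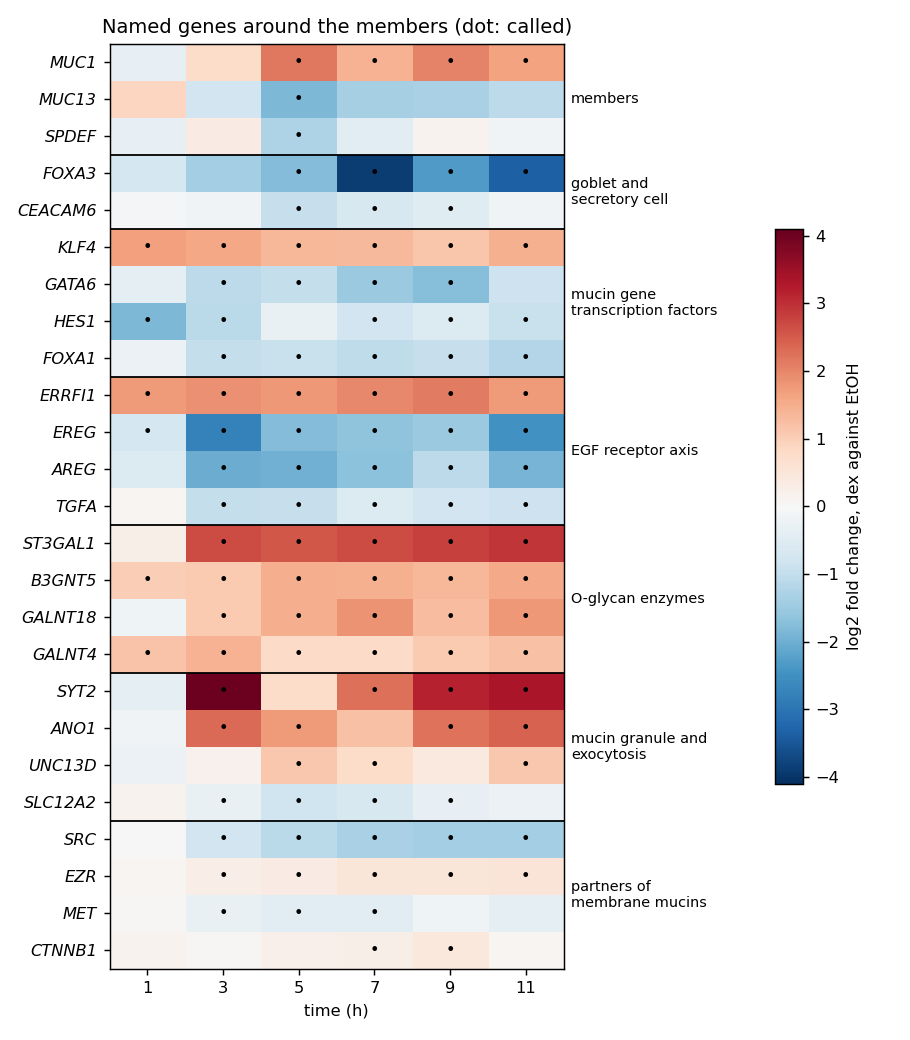
Log2 fold change of dex against EtOH (colour, red higher and blue lower with dex) at 6 times in hours (x axis) for the 3 members called at any time and the named genes of 6 lists (y axis), with a dot where the gene was called. MUC1 was called higher from 5 h, ST3GAL1 from 3 h and KLF4 from 1 h. EREG was called lower from 1 h, AREG, TGFA and FOXA1 from 3 h, GATA6 at 3, 5, 7 and 9 h, and FOXA3 from 5 h.

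Markers of other cell types were low beside the epithelial markers, but some stood above the members. The fibroblast marker COL1A1 had a median of 15.5 CPM, the basal cell marker TP63 6.40 and the leukocyte marker CD68 4.03. These were the highest of their lists. The other markers of the same lists had medians from 0 CPM, for COL1A2, KRT14, PTPRC and CD3E, to 1.75 CPM, for CD14. SPDEF, the member with the highest median, had 2.08 CPM. Of 4 basal cell markers 1 was tested, TP63, which fell from 3 h with a mean log2 fold change of -1.87 ± 0.12 (SE), and the 4 together summed to 1.88 to 8.49 CPM with dex and 5.70 to 10.3 CPM with EtOH. Of 6 ciliated cell markers, DNAI2 and TEKT1 were at 0, and the sums were 1.67 to 5.42 CPM with dex and 1.64 to 5.73 CPM with EtOH. The 5 leukocyte markers summed to 4.09 to 9.87 and 5.47 to 8.90 CPM, with CD3E at 0. Of 5 fibroblast markers 3 were tested, and they summed to 6.61 to 24.9 CPM with dex and 12.6 to 21.1 CPM with EtOH. Their part in the results on the mucins was not tested.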

How the data were processed

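Single-end reads of 50 bases from poly-A RNA were mapped by the authors to GENCODE transcripts with Bowtie and counted with SAMtools. The deposited values are raw counts per transcript, with no scaling for depth or length. Treatment, duration and replicate came from the labels, whose treatment text gives 1 h for all libraries while the duration tag runs to 11 h and was used here. The study's methods state triplicates, and the labels give 2 replicates. The placement of reads shared by transcripts is not given in the sources used here. In 35 pairs of identical transcripts the counts split like a random draw (median 50.3% on the first), so summing rows counted each read once.

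The 119207 rows were joined to GENCODE release 29 (GRCh38) by identifier without version. Those with a gene, 110261, hold 94.1% of the counts. The authors used release 19 on hg19, and rows retired since then were not used. Coordinates are those of release 29.

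Counts per gene were tested with edgeR 4.0.16 in R 4.3.3 (TMM, filterByExpr over 12 groups, robust quasi-likelihood F-test), 2 dex against 2 EtOH libraries at each time, and with one fit of 24 libraries for the mean effect, for differences between times and for drift with EtOH. P-values were adjusted by Benjamini-Hochberg over 15337 genes. Standard errors are the log2 fold change over the root of F, and CPM uses TMM library sizes. The biological coefficient of variation was 6.49% to 12.7%. On simulated counts at 5 h the test recovered 77% of 2-fold and 96% of 4-fold changes, and 13.9% of 201 calls were false. That false share is above the share that the threshold for a call sets. The simulation covered all 15337 tested genes, and its rates were not split by level. The rates therefore do not show how often a change would be found at the low counts of the members.

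The members and gene lists were chosen with earlier results of these data known. All members are named. From each list, at most 4 genes are named, ranked by the size of the mean effect among those called at 2 consecutive times, with MUC2, MUC4, FOXA3 and 3 treatment checks, and OVGP1, AGR2, TFF1, EGFR and MSLN after their values were seen. For the cell type lists only genes beside a marker count are named. Alternatives were DESeq2 1.42.0, its size factors in edgeR, no filter, at least 10 counts in every library and a threshold of 0.05. Others were the replicate number as a block, one fit for all times and the transcript with the most counts. Each library was also left out in turn, in one fit over all the rest.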

Additional observations from a re-analysis of the deposited data

Results flagged for a closer look

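The effect of dex differed between times by an F-test over the 6 effects in one fit of 24 libraries (edgeR's quasi-likelihood test, adjusted over all genes) for the following genes. For MUC1 the adjusted p was 0.0593, with log2 fold changes from -0.35 at 1 h to 2.16 at 5 h. Among transcription factors it was 0.00377 for HES1 and 0.0897 for FOXA1, and among goblet cell genes 0.0239 for CEACAM6. For the EGFR ligands it was 8.27e-09 for EREG, 0.000299 for AREG and 0.0109 for TGFA. For sugar-adding enzymes it was 8.27e-09 for ST3GAL1 and 3.47e-05 for GALNT18. For granule genes it was 0.0781 for SYT2, 0.00425 for UNC13D and 0.00387 for SLC12A2, and for partners of MUC1 2.17e-05 for SRC and 0.0446 for MET. For the GR targets it was 0.000123 for TSC22D3, 2.77e-15 for FKBP5, 0.00421 for PER1 and 5.48e-05 for KLF9. For the cell type markers it was 0.00101 for KRT8, 6.55e-05 for KRT18, 0.0470 for KRT7, 0.000370 for TP63 and 0.00137 for COL1A1. Groups of 2 libraries were too small for a check of single outlying libraries.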

How the results depend on the processing

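Counts near 10 per library limit the values of the members. The number of members called was 0 at 1 and 3 h, and 0 for drift with EtOH, under each alternative. The filter of 10 counts in every library left 1 member tested at 1 h, 3 at 3 h and 0 for drift. Its 0 for drift was therefore fixed in advance, and untested members could not be called at 1 and 3 h. At 5 h the count of 3 became 1 with DESeq2, which gave MUC13 no adjusted p and an unadjusted p not under 0.05. In one fit over 24 libraries the count at 5 h was 2 (MUC1 and SPDEF), and libraries were left out in that fit. Leaving out libraries gave 1 to 2 at 5 h, 0 to 1 at 11 h, 1 to 3 for the mean effect (SPDEF was added without the first dex library of 7 h) and 0 to 1 for the difference between times, where the call of MUC1 was lost without either dex library of 1 h, the first EtOH library of 1 h or of 3 h, or the second of 5 h. At 7 and 9 h each left-out library kept the count of 1. The count at 11 h was 0 with DESeq2 (MUC1, adjusted p = 0.105). A threshold of 0.05 left 0 members for the difference between times. With the transcript with the most counts, 0 members were called at 7, 9 and 11 h. A filter of 10 counts in every library left MUC1 untested at 5, 9 and 11 h and in the fit of 24 libraries, so 0 members were called there. The mean effect of MUC1 ranged from 1.18 to 1.43 over the left-out libraries and kept its call in each.

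The deviations of same-numbered dex and EtOH libraries correlated at 0.157 at 1 h and 0.111 at 9 h and at -0.068 to 0.036 at the other times. As not every pair exceeded 0.1, the numbers were not taken to pair the samples. With the replicate number as a block, 3 members were called at 5 h and 2 for the mean effect, as without it, and 583 of all genes were called at 1 h in place of 162 and 4389 at 9 h in place of 3033.

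Some values that were not called changed sign when single libraries were left out, and these are given here. The others kept their sign. Those were MUC1 at 3 h, MUC13 at 3, 9 and 11 h, MUC5B at 1 and 3 h, MUC20 at 9 h and SPDEF at 1 h. The log2 fold change of MUC1 ranged from -0.75 to 0.14 at 1 h. MUC13 ranged from -0.61 to 1.42 at 1 h and from -2.53 to 0.14 at 7 h. MUC20 ranged from -0.29 to 1.07 at 1 h, from -0.20 to 0.081 at 3 h, from -0.39 to 0.45 at 5 h, from -0.066 to 0.67 at 7 h and from -1.19 to 0.18 at 11 h. MUC5B ranged from -0.45 to 0.56 at 5 h, from -0.11 to 0.33 at 7 h, from -0.44 to 0.048 at 9 h and from -0.52 to 0.63 at 11 h. SPDEF ranged from -0.17 to 1.27 at 3 h, from -1.66 to 0.060 at 7 h, from -0.49 to 0.43 at 9 h and from -0.39 to 0.13 at 11 h. With the transcript with the most counts SPDEF was 0.16 at 1 h and -0.10 at 3 h, and MUC20 was -1.88 at 5 h. Of the named genes outside the members, ANO1 lost the call of its mean effect without the first dex library of 1 h (adjusted p = 0.982), which left a group at 0 counts. The cause of these changes was not tested.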

Other observations

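KRT8, KRT18 and KRT7, keratins of simple epithelia, rose with dex in the same libraries. Not all epithelial markers did. Of the 6, 4 were called higher and 2 lower in the mean over the 6 times (16.9% and 18.9% of all genes). KRT8 was at 5076 ± 40 CPM with dex and 2046 ± 187 with EtOH at 5 h (SD), and its mean log2 fold change over the 6 times was 0.94 ± 0.06 (SE, edgeR's adjusted p = 6.41e-12). KRT18 rose by 0.71 ± 0.05 and KRT7 by 0.63 ± 0.07, while EPCAM, an adhesion molecule of epithelia, fell by 0.55 ± 0.09. Among fibroblast markers, COL1A1, a chain of collagen I, fell by 0.54 ± 0.10, and KLF9, a GR target, rose by 3.16 ± 0.07.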
